A study of Mus musculus with 5 samples.

Results

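The genes described here encode heterogeneous nuclear ribonucleoproteins (hnRNPs) and splicing factors. They were chosen by name, as the gene symbols that begin with Hnrp, Hnrnp, Sfrs or Srsf with a digit, Snrp with a digit or a letter from a to g, Sf3a or Sf3b, leaving out Snrpn. The rule found 56 of the 15597 genes in the deposited counts. They fell into 4 families by name, which were hnRNPs (20 genes), serine and arginine-rich (SR) and SR-related factors (16), protein components of the small nuclear ribonucleoproteins (snRNPs; 12) and subunits of splicing factor 3 (SF3; 8).

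Single mouse cells of 3 types were sorted by flow cytometry into plates of 96 wells, 1 cell per well. In this assay the template-switching oligo of each well adds its own barcode of 5 bases to the 5′ end of cDNA. All wells of a plate are then pooled for PCR, so each plate is 1 library. There were 3 plates of ES R1, a line of mouse embryonic stem (ES) cells that the labels describe as ES-derived spheres, 1 plate of the neuroblastoma line Neuro2A and 1 of embryonic fibroblasts (MEF). Neuro2A and MEF were grown in the same serum-containing medium. The labels give no genotype, treatment, time, passage or age for any of them, and they do not say whether the 3 ES plates came from separate cultures. The p-values below therefore measure only the spread between these ES plates, which may be technical, and for Neuro2A and MEF the cell type and its single plate cannot be told apart.

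Pre-mRNA splicing is carried out by the spliceosome, which assembles on each intron from snRNPs. The Sm proteins, such as Snrpd1 and Snrpg, form the ring around the small nuclear RNAs, and the SF3A and SF3B complexes belong to the U2 snRNP, which recognises the branch point. SR proteins bind mainly exonic enhancers and favour the use of nearby splice sites, while hnRNPs coat nascent RNA and often act against nearby splice sites. As a group these genes are known for broad expression across cell types.

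Reads on genes numbered from 277068 in ES plate 2 to 11434036 in ES plate 1. At a minimum of 1000 gene reads, 431 of 480 wells were kept (93, 66, 94, 86 and 92 in ES plates 1, 2 and 3, Neuro2A and MEF), where the stated design counts 436 cells, and the same 96 barcodes served on all 5 plates by design. The cell types carried their markers: 7 ES markers summed to between 5718 and 8692 counts per 1000000 gene reads (CPM) in the ES plates, and to 0.317 in Neuro2A and 1.36 in MEF. Fibroblast markers (7 genes) summed to 18826 CPM in MEF, 23.5 in Neuro2A and 0, 53.3 and 2449 in ES plates 1, 2 and 3. Of the 6 neuroblastoma markers with reads, the summed level was 970 CPM in Neuro2A and 108 in MEF, and at most 19.7 in an ES plate. Summed over kept wells, 199 genes chosen as high in MEF had in ES plate 3 a median of 10.8% of their MEF reads. For 134 genes chosen as high in Neuro2A the median in MEF was 9.45%. None of the 56 genes was among them. The target plate played no part in the choice, so genes expressed there can be included. Wells were not matched by barcode. Whether these reads were carried over or came from the plate's own cells was not tested, and they are called carried-over shares here. Subtracting those shares from every gene took away 9.83% of the reads on the 56 genes in ES plate 3 and 24.8% in MEF. The MEF level fell by more than 1.5 times in 19 of the 56 genes after it, 9 of them hnRNPs and 7 SR genes, and values after subtraction are given beside the main differences that rest on MEF. Each share is a median over genes whose spread was not estimated. Its subtraction by construction lowers the target most in genes read far more in the source.

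Promoter sequences are shown for 6 genes described in the comparisons that follow, as examples from each side; genes with larger ratios, such as Sf3a3 and Hnrpl, are not among them. Sfrs10, Sf3a1, Sfrs7 and Sfrs1 were read more in every ES plate than in MEF, and Hnrph1 and Hnrph2 less in every ES plate than in Neuro2A. All 56 genes matched a current RefSeq symbol, and 50 had at least 1 promoter entry in the RefSeq table of build GRCm38.p6. Each line below runs from 100 bases before the annotated start to 20 bases after it, 5′ to 3′ on the gene's strand. Capitals mark matches, on either strand, to the GC box GGGCGG, the ETS core CCGGAAG, the NRF1 core GCATGCGC and the CCAAT box CCAAT, and no match overlapped another.
Sfrs10 (Tra2b in RefSeq), chr16:22265986-22266105, minus strand: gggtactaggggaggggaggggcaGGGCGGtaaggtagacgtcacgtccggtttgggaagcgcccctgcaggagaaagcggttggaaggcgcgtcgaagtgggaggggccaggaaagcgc
Sf3a1 (Sf3a1 in RefSeq), chr11:4160254-4160373, plus strand: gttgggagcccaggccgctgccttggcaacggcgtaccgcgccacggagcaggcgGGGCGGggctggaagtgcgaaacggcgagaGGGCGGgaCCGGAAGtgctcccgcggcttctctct
Sfrs7 (Srsf7 in RefSeq), chr17:80207286-80207405, minus strand: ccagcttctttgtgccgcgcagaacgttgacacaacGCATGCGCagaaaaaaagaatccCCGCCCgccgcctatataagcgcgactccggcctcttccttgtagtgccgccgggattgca
Sfrs1 (Srsf1 in RefSeq), chr11:88047273-88047392, plus strand: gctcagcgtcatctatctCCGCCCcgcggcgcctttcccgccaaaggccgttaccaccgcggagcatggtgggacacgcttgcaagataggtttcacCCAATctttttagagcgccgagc
Hnrph1 (Hnrnph1 in RefSeq), chr11:50376890-50377009, plus strand: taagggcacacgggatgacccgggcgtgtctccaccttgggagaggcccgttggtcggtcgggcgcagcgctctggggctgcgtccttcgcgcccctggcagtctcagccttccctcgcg
Hnrph2 (Hnrnph2 in RefSeq), chrX:134601079-134601198, plus strand: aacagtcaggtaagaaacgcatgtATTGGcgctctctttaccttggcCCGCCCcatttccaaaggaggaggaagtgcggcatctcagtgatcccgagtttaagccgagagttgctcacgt
The Hnrph1 window, taken from the first of its 5 entries, held none of these letters, which says nothing of the factors that bind there. The 67 whole entries of 300 bases came from 50 of the 56 genes, and Hnrph1 alone had 5, so entries are not independent. For 48 of the 67 the bases after the start were found near the 5′ end of an annotated transcript of the gene. The ETS core, the motif with the largest gap of those counted, was found in 25 of the 67 (37.3%). It was in 17.7% of 11142 entries of the genes tested and 8.86% of all 32851 entries. The GC box was in 73.1% of the 67 entries, 64.0% of those of tested genes and 35.7% of all. The CCAAT box was in 38.8%, 38.0% and 37.4%. The NRF1 core was in 6.0% of the 67 entries and 5.3% of those of tested genes. For the E-box CACGTG these were 11.9% and 10.2%, for the TATA box TATAAA 9.0% and 7.1%, and for the YY1 core AAGATGGC 3.0% and 4.6%. Median GC content was 62.3% in the 67 entries and 61.0% in those of tested genes. These are counts of letters in a window, and no binding was measured.

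The 56 genes together took a smaller share of gene reads in fibroblasts than in either cell line. Their share was 2.61%, 2.06% and 1.68% in ES plates 1, 2 and 3 (mean 2.12 ± 0.469%, SD, n = 3), 2.70% in Neuro2A and 1.11% in MEF. The lowest ES plate was 1.51-fold above MEF, the ES mean 1.91-fold and Neuro2A 2.44-fold. The exact (Clopper-Pearson) 95% intervals, which cover counting error only because reads amplified by PCR without molecular identifiers are not independent molecules, ran from 2.69% to 2.72% in Neuro2A, from 1.10% to 1.12% in MEF and from 2.01% to 2.12% in ES plate 2, the shallowest. No test was made of the share, since with 3 plates against 1 an exact permutation test cannot go below p = 0.25. After subtraction of the carried-over shares the MEF value was 0.923% and ES plate 3 was at 1.77%. With repeats in the denominator the ES plates stood at 1.69%, 0.305% and 0.865%, on both sides of MEF at 0.732%, and repeats took 82.4% of the reads of ES plate 2.

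**Figure D1:**
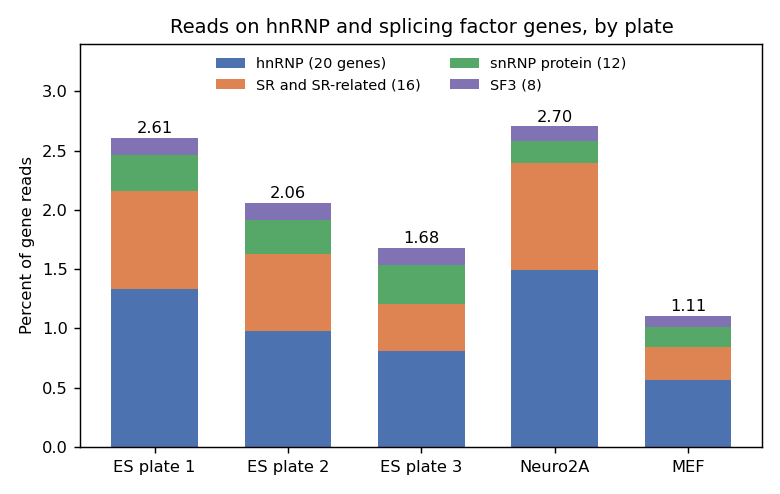
Share of gene reads on the 56 hnRNP and splicing factor genes in each plate, stacked by family (y axis, percent of gene reads; bars start at 0; number above each bar, the total). MEF, at 1.11%, is lower than every other plate, and the 3 ES plates spread from 1.68% to 2.61%.

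Each of the 4 families was lower in MEF than in every ES plate, but the families differed in how Neuro2A stood. The hnRNP genes took 1.34%, 0.977% and 0.806% of gene reads in ES, 1.49% in Neuro2A and 0.564% in MEF. The SR genes took 0.824%, 0.654% and 0.399% in ES, against 0.902% for Neuro2A and 0.279% for MEF. Both families were thus highest in Neuro2A, and the ES plates did not overlap with it. The snRNP genes took 0.303%, 0.286% and 0.333% in the ES plates, against 0.186% in Neuro2A and 0.172% in MEF. For the SF3 genes the values were 0.148%, 0.145% and 0.138% in ES, 0.123% in Neuro2A and 0.0926% in MEF. The snRNP and SF3 shares were the most even between the ES plates, with SDs of 0.0239 and 0.00473 percentage points against 0.270 for hnRNPs and 0.214 for SR genes. This holds for the sums and not for each gene. Snrpg rose from 446 to 796 and 1385 CPM by library size alone over ES plates 1, 2 and 3, and it weighs on the snRNP sum.

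Read as a share of the reads on the 56 genes alone, which no scaling between plates can change, snRNP genes made up 11.6%, 13.9% and 19.9% in the ES plates, 15.5% in MEF and 6.87% in Neuro2A. Neuro2A was below the other 4 plates in this share. Snrpg alone held 1.71%, 3.86% and 8.26% of the reads on the 56 genes in the ES plates, 3.87% in MEF and 0.759% in Neuro2A. The place of MEF within the ES range for snRNP genes thus leans on this gene. SR genes made up 31.6%, 31.7% and 23.8% in ES, 33.4% in Neuro2A and 25.2% in MEF, so MEF lay within the range of the ES plates. For hnRNPs the values were 51.2%, 47.4% and 48.1% in ES, 55.2% in Neuro2A and 50.9% in MEF. By single genes, 17 of 56 held a larger share of these reads in every ES plate than in MEF, 17 a smaller one and 22 overlapped. Against Neuro2A the counts were 21, 11 and 24.

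Levels per gene were compared as CPM after scaling by trimmed mean of M values (TMM), and the scaling decided much of the ES to MEF comparison. The TMM factor was 0.680 in MEF, 0.991 in Neuro2A and 1.09, 1.32 and 1.03 in the ES plates, and the 50 most-read genes took 18.1% of gene reads in MEF and between 10.97% and 12.9% elsewhere. With TMM, 19 of the 56 genes were higher in every ES plate than in MEF and 14 were lower in every one, where 23.3% and 39.8% of all 12271 genes tested did so. With library size alone 37 were higher and 1 was lower, against 31.5% and 28.5% of all genes. With the size factors of DESeq2 (RLE) the counts were 20 and 11, against 24.7% and 37.5%. The median difference between ES and MEF on the log2(CPM + 1) scale was 0.26 over the 56 genes with TMM and -0.07 over all genes tested. With library size alone it was 0.98 and 0.62, so the 2 medians lay 0.33 apart with TMM and 0.35 with library size alone. Among genes at 100 CPM or more in a cell type, 45 of the 56, that distance was 1.05 with TMM (0.22 over the 45 and -0.83 over all) and 0.75 with library size alone (0.91 and 0.16). Without the wells whose barcode ends in G (24 of 92 in MEF) the counts with TMM were 29 higher and 3 lower, against 26.7% and 30.2% of all genes. After subtraction of the carried-over shares they were 32 and 5, against 30% and 31.3%. With each well weighted equally they were 21 and 8, against 24.5% and 35.8%. The wells with a barcode ending in G and the carried-over reads were noticed in the data, and their part in single differences was not tested.

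**Figure D2:**
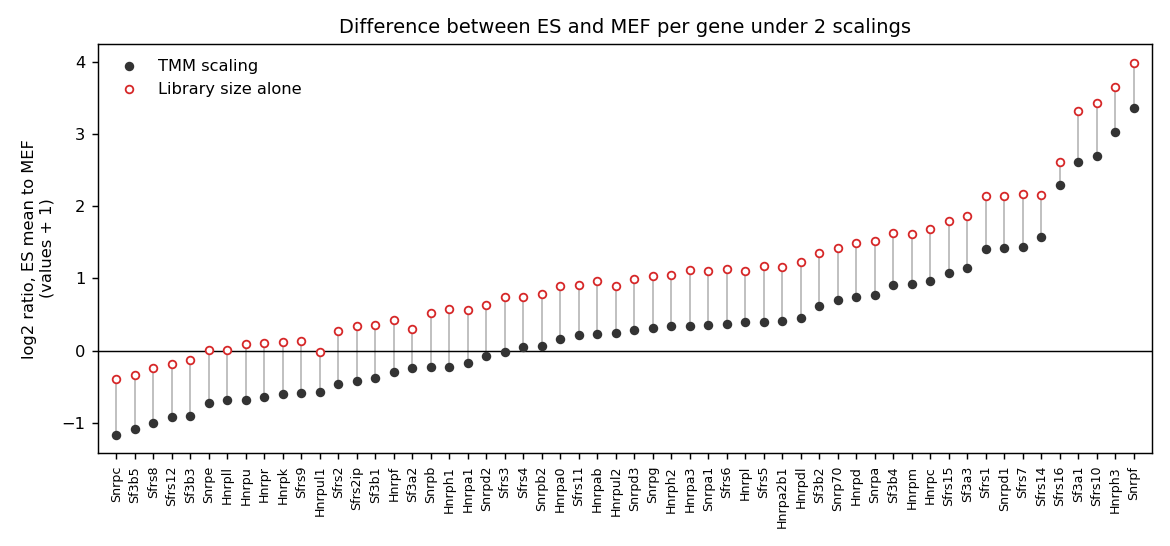
Difference between the ES mean and MEF for each of the 56 genes (x axis, ordered by the TMM value; y axis, log2 ratio of values + 1) with TMM scaling (filled) and with library size alone (open). The open points lie above the filled ones for every gene, and genes near 0, such as Snrpe and Hnrpll, change sign.

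No gene of the 56 passed the test against MEF at an adjusted p of 0.05 (edgeR's quasi-likelihood test, Benjamini-Hochberg over all genes; 55 were tested, and Sfrs14 had too few reads). The test called 0% of all genes in either direction. The spread it estimated was wide, with a biological coefficient of variation of 122%, and its 2 residual degrees of freedom came from ES alone. At an unadjusted p under 0.05, 2 genes were higher in ES and 0 were lower, against 4.21% and 4.17% of all genes. DESeq2 called 0 of the 56 either way (3.22% of genes higher in ES and 0.701% lower), as did limma-voom (0.00815% and 4%). The differences from MEF in the next paragraphs are therefore values of these plates, and none passed a test.

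Of the genes at 100 CPM or more in ES, Sfrs10 had the largest ratio to MEF. It encodes Tra2b, an SR-like activator of exon inclusion. It stood at 233, 162 and 139.9 CPM in ES, 107 in Neuro2A and 26.6 in MEF. The groups did not overlap, and ES was 6.70-fold above MEF (log2 fold change 2.74 ± 0.93, SE; edgeR adjusted p = 0.548). The ratio to MEF was 11.3 with library size alone and 20.1 after subtraction of the carried-over shares, with MEF then at 9.64 CPM. Sf3a1, a subunit of the U2 snRNP that takes part in branch point recognition, had much the same profile, at 155, 107 and 104 CPM in ES, 73.2 in Neuro2A and 19.1 in MEF. Its ES level was 6.39-fold that of MEF (log2 fold change 2.67 ± 1.05; edgeR adjusted p = 0.582), and 18.1-fold after subtraction, with 16 MEF reads left. For both genes MEF was the lowest plate and Neuro2A lay between it and the ES plates.

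A further 3 genes were named on the ES side. They had the next largest ratios among genes with 100 CPM in the higher group and every ES plate on 1 side. Sfrs7, an SR protein that also adapts mRNA for export, stood at 721, 441 and 424 CPM in ES, 1054 in Neuro2A and 196 in MEF. ES was 2.70-fold above MEF (edgeR adjusted p = 0.590) and 15.8-fold after subtraction, which took MEF to 36.3 CPM. Sfrs1, the SR protein also known as ASF or SF2, stood at 1724, 756 and 615 CPM in ES, 1329 in Neuro2A and 387 in MEF. It was 2.66-fold higher in ES than in MEF (adjusted p = 0.609) and 6.35-fold after subtraction, with ES plate 1 far above the other ES plates. Snrpd1, an Sm ring protein, stood at 366, 202 and 252 CPM in ES, 50.9 in Neuro2A and 102 in MEF, with a ratio of 2.68 to MEF (adjusted p = 0.596) and of 3.44 after subtraction. Without ES plate 2 the log2 fold changes of these 5 genes were larger, at 3.39 for Sfrs10, 3.33 for Sf3a1, 2.13 for Sfrs7, 2.19 for Sfrs1 and 2.17 for Snrpd1. Each fit with a plate left out recomputed the gene filter and the TMM factors. A change in such a fit, here and below, need not come from the gene's own level in that plate. Of the 5, Snrpd1 was the one with a lower level in Neuro2A than in MEF. Below the 100 CPM limit, and picked out after its values were seen, Hnrph3, a relative of hnRNP H, stood at 33.0, 46.2 and 52.2 CPM in ES, 42.9 in Neuro2A and 4.52 in MEF, where it had 9 reads and none after subtraction. Snrpf, another Sm ring protein, likewise stood at 97.3, 46.2 and 39.1 CPM in ES, 12.8 in Neuro2A and 5.02 in MEF, where it had 10 reads and 6 after subtraction.

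Of the 14 genes lower in every ES plate than in MEF with TMM, 11 were so with RLE size factors too, and 1 with library size alone. Sf3b5, a small subunit of SF3B, stood at 145, 141 and 158 CPM in ES, 107 in Neuro2A and 317 in MEF. It was 2.14-fold higher in MEF (log2 fold change of ES over MEF -1.09 ± 0.66; edgeR adjusted p = 0.599) and was the 1 gene that lay below MEF in every ES plate with library size alone too, at 158, 187 and 163 CPM against 215. Its log2 fold change was -0.51 without ES plate 1 and -0.50 without ES plate 2, with TMM factors recomputed. Its levels in the ES plates under the main scaling spread little (SD 8.74 CPM). Snrpc, a protein of the U1 snRNP that helps it bind the 5′ splice site, stood at 28.4, 95.2 and 86.8 CPM in ES, 36.1 in Neuro2A and 159 in MEF. It overlapped between ES and MEF with library size alone, since ES plate 2 then stood at 126 CPM against 108, and its log2 fold change moved from -1.19 to -0.23 without ES plate 1. Sf3b3, the SF3B subunit that resembles a DNA damage-binding protein, stood at 100.2, 176 and 138 CPM in ES, 241 in Neuro2A and 260.0 in MEF (adjusted p = 0.625) and overlapped likewise, at 232 in ES plate 2 against 177. Without ES plate 1 its log2 fold change moved from -0.92 to -0.16. Snrpe and Hnrpll, at -0.72 and -0.68 (log2 fold change of ES over MEF), reversed to 0.0067 and 0.022 with library size alone, and stood at -0.00092 and 0.20 without ES plate 2.

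**Figure D3:**
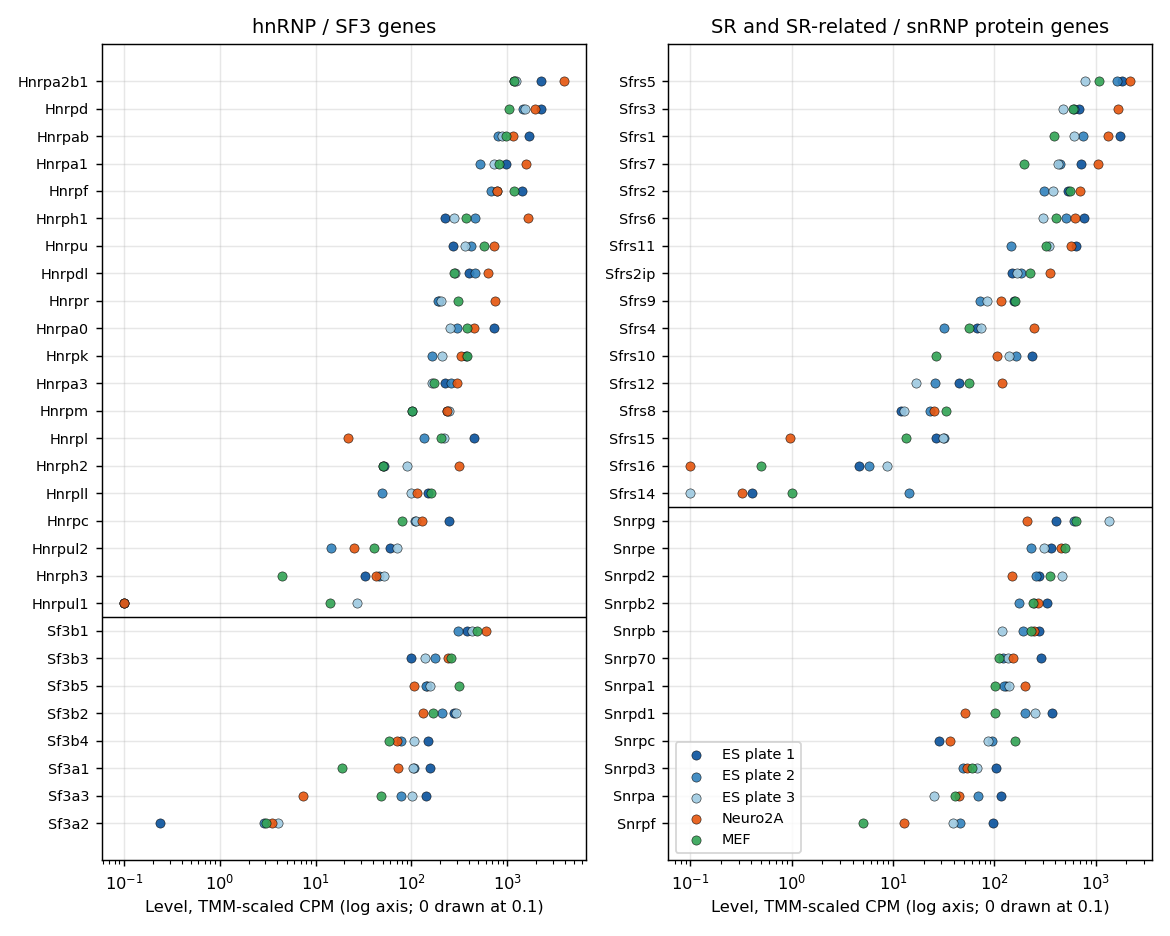
Level of each of the 56 genes in each plate (x axis, TMM-scaled CPM on a log scale, 0 drawn at 0.1; 1 row of points per gene, ordered within families by mean level). The MEF point is the lowest of 5 for 14 genes (30 with library size alone) and the Neuro2A point the highest for 17, among them Hnrph1, Hnrph2, Sfrs4 and Hnrpr. Over all genes tested, MEF was the lowest for 13.6% with TMM and 19.9% with library size alone, and Neuro2A the highest for 21.5% with TMM.

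Neuro2A differed from ES in both directions by family, and the scaling moved these counts less than those against MEF. With TMM, 13 of the 56 genes were higher in every ES plate than in Neuro2A and 20 were lower in every one, where 28.8% and 28.1% of all genes tested did so. With library size alone the counts were 15 and 18, against 30.9% and 25.6%. Of the 20 genes lower in ES, 8 were hnRNPs, 8 SR genes, 2 snRNP genes and 2 SF3 genes. Of the 13 higher in ES, 1 was an hnRNP, 3 were SR genes, 4 snRNP genes and 5 SF3 genes. Leaving out ES plate 1, which was the highest ES plate for 31 of the 56 genes, raised the count lower in ES to 34, where 32.7% of all genes were lower in both other ES plates. With a plate left out such a count can only stay or rise. The median difference between ES and Neuro2A was -0.18 over the 56 genes and 0.77 over all genes tested on the log2(CPM + 1) scale. Among genes at 100 CPM or more in a cell type the 2 medians lay closer together, at -0.33 over 45 of the 56 and -0.14 over all 4344. By family the medians were -0.25 for hnRNPs, -0.61 for SR genes, 0.55 for snRNP genes and 0.55 for SF3 genes. With library size alone the median over the 56 genes turned to 0.0075, against 0.95 over all genes tested, and that of the hnRNPs was -0.09.

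In edgeR's test of ES against Neuro2A 0 of the 56 genes passed at an adjusted p of 0.05, and 0% of all genes did. At an unadjusted p under 0.05, 3 genes were higher in ES and 3 lower, against 8.38% and 4.05% of all genes. With DESeq2 3 were called higher and 1 lower (8.75% and 1.33% of all genes), and limma-voom called 0 of the 56 and 0% of all genes. The genes that DESeq2 called were Sf3a3 (log2 fold change 3.85, adjusted p = 0.0129), Hnrpl (3.59, adjusted p = 0.0093), Snrpd1 (2.40, adjusted p = 0.0478) and Hnrph1 (-2.37, adjusted p = 0.0405).

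Among hnRNP genes, Hnrph1, Hnrph2 and Hnrpr had the largest ratios on the Neuro2A side, while Hnrph3 and Hnrpf, of the same group as the first of these, overlapped between ES and Neuro2A. Hnrph1, which binds runs of guanines near splice sites, stood at 222, 459 and 278 CPM in ES, 1656 in Neuro2A and 373 in MEF. Neuro2A was 5.18-fold above the ES mean (log2 fold change of ES over Neuro2A -2.38 ± 0.67; edgeR adjusted p = 0.324). Hnrph2, its X-linked relative, stood at 50.3, 51.9 and 89.0 CPM in ES, 316 in Neuro2A and 50.2 in MEF, and Neuro2A was 4.95-fold above ES (adjusted p = 0.361). The ES and MEF levels of Hnrph2 were close while Neuro2A stood apart, and its ratio to MEF was 6.29. After subtraction of the carried-over shares MEF was left with 7 reads of Hnrph2, or 3.21 CPM, below every ES plate. Hnrpr, an RNA-binding protein close to Syncrip, stood at 195, 190.4 and 204 CPM in ES, 752 in Neuro2A and 307 in MEF. Its ES values spread little (SD 6.91 CPM), and Neuro2A was 3.83-fold above them (edgeR adjusted p = 0.343). MEF was above every ES plate of Hnrpr with TMM, and below every one after subtraction, at 179 CPM, and with library size alone.

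Hnrpl, which binds CA-rich RNA and regulates alternative exons, went the other way. It stood at 451, 136 and 219.9 CPM in ES, 204 in MEF and 21.7 in Neuro2A, where it had 68 reads. ES was 12.4-fold and MEF 9.39-fold above Neuro2A (ES against Neuro2A, edgeR adjusted p = 0.344). ES and MEF overlapped with TMM, before and after subtraction, and every ES plate was above MEF with library size alone. The most-read hnRNP genes differed less: Hnrpa2b1, which binds RNA in splicing and transport, stood at 2277, 1183 and 1221 CPM in ES, 3909 in Neuro2A and 1169.9 in MEF. It was the most-read of the 56 genes in Neuro2A, with 14.3% of their reads, and was 2.51-fold higher there than in ES (edgeR adjusted p = 0.487). Hnrpd, also known as AUF1, a regulator of mRNA decay, stood at 2261, 1448 and 1540.0 CPM in ES, 1926 in Neuro2A and 1042 in MEF, so ES and Neuro2A overlapped. Hnrpab, a relative of Hnrpd, stood at 1702, 802 and 888 CPM in ES, 1155 in Neuro2A and 962 in MEF and overlapped with both. With library size alone every ES plate of Hnrpab was above MEF, as it was after subtraction, with MEF then at 723 CPM. Counts here are not divided by transcript length, so which gene had the most reads is a statement on reads.

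Of the SR genes, Sfrs4 and Sfrs12 were the lowest in ES relative to Neuro2A. Sfrs4, a larger SR protein, stood at 67.5, 31.7 and 74.0 CPM in ES, 243 in Neuro2A and 55.7 in MEF (4.21-fold higher in Neuro2A than in ES; edgeR adjusted p = 0.414). Sfrs12, an SR-related regulator now named Srek1, stood at 44.9, 25.96 and 16.8 CPM in ES, 119.6 in Neuro2A and 56.2 in MEF (4.09-fold; adjusted p = 0.492). In both genes the ES plates and MEF were all below Neuro2A. Sfrs3, the smallest of the SR proteins, stood at 683, 614 and 479.7 CPM in ES, 1665 in Neuro2A and 598 in MEF, so that MEF lay among the ES plates and Neuro2A was 2.81-fold above ES (edgeR adjusted p = 0.406). Sfrs5, the SR protein also known as SRp40, stood at 1808, 1627 and 788 CPM in ES, 2197 in Neuro2A and 1069 in MEF, with ES overlapping MEF. For Sfrs3 and Sfrs5 these overlaps held with TMM only, and with library size alone every ES plate was above MEF. After subtraction MEF stood at 321 CPM for Sfrs3 and 680 for Sfrs5, also below every ES plate.

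Of the 7 Sm ring genes, Snrpd1, Snrpd2, Snrpf and Snrpg were higher in every ES plate than in Neuro2A, Snrpb and Snrpd3 overlapped, and Snrpe was lower. Snrpd1 was 5.38-fold higher in ES (log2 fold change 2.43 ± 0.87; edgeR adjusted p = 0.372), with the values given above. Snrpg stood at 409, 603 and 1342 CPM in ES, 207 in Neuro2A and 631 in MEF, a ratio of 3.79 between ES and Neuro2A (adjusted p = 0.481). Its ES plates spread widely, and MEF lay just above the middle one with TMM. After subtraction MEF, at 549 CPM, still lay among the ES plates, and with library size alone every ES plate was above MEF. Without ES plate 3 its log2 fold change moved from 1.92 to 1.30. Snrpd2, another Sm ring protein, stood at 273, 257 and 466 CPM in ES, 151 in Neuro2A and 352 in MEF (2.20-fold; adjusted p = 0.535). Snrpe stood at 362, 231 and 308 CPM in ES, 452 in Neuro2A and 497 in MEF, below both other cell types in every ES plate with TMM. Its overlap with MEF returned with library size alone.

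In the SF3 family, Sf3a3 had the lowest relative level in Neuro2A. This subunit of SF3A stood at 143, 77.9 and 102 CPM in ES, 48.2 in MEF and 7.36 in Neuro2A, where it had 23 reads. ES was 14.6-fold above Neuro2A (log2 fold change 3.87 ± 1.24; edgeR adjusted p = 0.347) and MEF 6.55-fold above it. Sf3b1, the largest subunit of SF3B and the one that contacts the branch point, stood at 384, 303 and 433 CPM in ES, 601 in Neuro2A and 487 in MEF. Every ES plate was below both other cell types with TMM, and above MEF with library size alone (419, 400.0 and 447 CPM against 331).

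**Figure D4:**
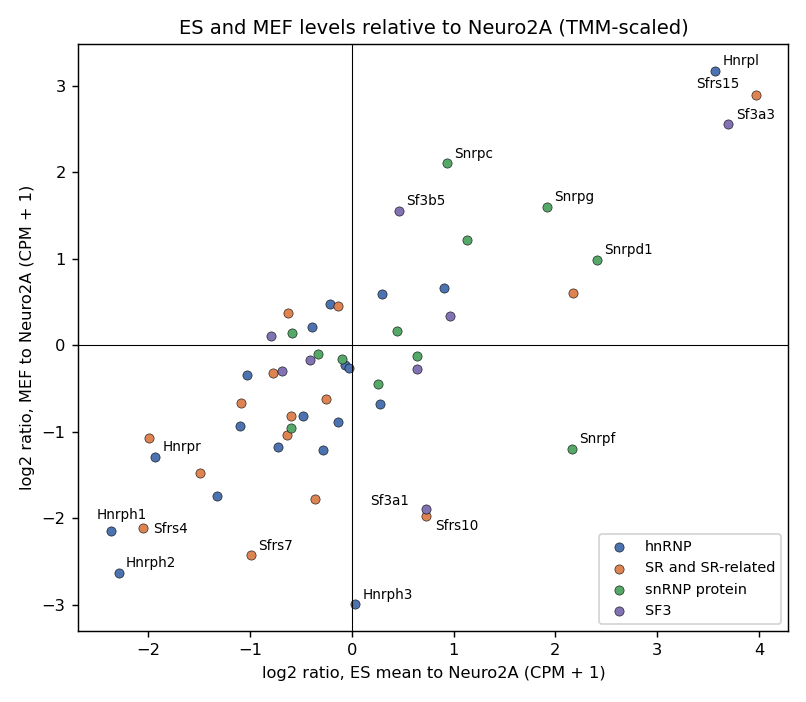
Levels relative to Neuro2A for the 54 genes with reads there (x axis, log2 ratio of the ES mean to Neuro2A; y axis, log2 ratio of MEF to Neuro2A; TMM-scaled CPM + 1; colour, family). Hnrpl and Sf3a3 are low in Neuro2A against both other cell types, Hnrph1, Hnrph2 and Sfrs4 are high against both, and Sfrs10 and Sf3a1 are low in MEF alone; the axes share the Neuro2A plate.

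Neuro2A and MEF were compared by ratio only, since each had 1 plate. With TMM, 16 of the 56 genes were at least 2-fold higher in Neuro2A and 11 at least 2-fold lower, where 28.3% and 39.1% of all genes tested were. At 3-fold the counts were 9 and 8, against 22.4% and 34.1%. With library size alone 24 and 9 passed 2-fold, against 34.3% and 34.3%. The 16 genes higher in Neuro2A included 7 hnRNP and 7 SR genes, and the 11 higher in MEF included 4 snRNP genes. The largest ratios on the Neuro2A side at 100 CPM or more were those of Hnrph2 (6.29), Sfrs7 (5.39), Hnrph1 (4.44), Sfrs4 (4.36) and Sfrs10 (4.03). On the MEF side they were those of Hnrpl (9.39), Snrpc (4.39), Snrpg (3.05), Sf3b5 (2.96) and Snrpd2 (2.34). After subtraction of the Neuro2A reads from MEF the 2-fold counts were 21 and 11, against 31.5% and 39.6%. After both subtractions the ratio of Neuro2A to MEF was 30.8 for Sfrs7, 15.0 for Hnrph1, 14.4 for Sfrs4 and 11.8 for Sfrs10. Taking a share of Neuro2A reads from MEF lowers MEF most in genes read far more in Neuro2A. The ratios of such genes thus rise by construction and are not corrected measurements. MEF then held 79 reads of Sfrs7, 254 of Hnrph1, 39 of Sfrs4 and 21 of Sfrs10.

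In 3 genes a whole plate had no read. Hnrpul1, related to hnRNP U, had 0 reads in ES plates 1 and 2 and in Neuro2A, 60 in ES plate 3 and 28 in MEF. A count of 0 allows up to 3 reads, which is 0.262 CPM by library size alone in ES plate 1, 11.4 in ES plate 2 and 0.951 in Neuro2A. ES plate 3, at 28.1, stood above all of these limits, and MEF, at 9.55, was under that of ES plate 2. Sfrs16, an SR-related protein that binds CLK kinases and is now named Clasrp, had 0 reads in Neuro2A, 1 in MEF and 58, 2 and 19 in the ES plates. Sfrs14, now named Sugp2, had 5, 5 and 0 reads in ES, 1 in Neuro2A and 2 in MEF, and nothing can be said of its differences at this depth. In ES plate 2, 7 of the 56 genes had fewer than 10 reads.

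Of 135 other splicing genes listed for comparison, 117 had reads. With TMM, 33 of them were higher in every ES plate than in MEF (28.2%) and 37 lower (31.6%), and against Neuro2A 42 were higher (35.9%) and 39 lower (33.3%). None passed edgeR's test at an adjusted p of 0.05. DESeq2 called 3 higher in ES than in MEF and 1 lower, against 3.22% and 0.701% of all genes. Against Neuro2A it called 9 and 3, against 8.75% and 1.33%. With limma-voom 0 were higher and 3 lower than MEF, against 0.00815% and 4%, and 0 were called against Neuro2A. The other splicing genes with the largest ratios included known regulators of alternative splicing. Lsm2, Lsm3, Lsm7 and Pcbp3 passed the same rule for naming and are not described here. Mbnl2, of the muscleblind family of alternative splicing regulators, stood at 52.3, 51.9 and 168 CPM in ES, 319 in Neuro2A and 1759 in MEF, which was 19.4-fold above ES (edgeR adjusted p = 0.472). Mbnl1 stood at 0.482, 17.3 and 59.1 CPM in ES, 397 in Neuro2A and 545 in MEF. In both genes ES plate 3, where reads of MEF genes were found, was the highest of the ES plates. Cugbp2, of the CELF family, stood at 0.642, 40.4 and 20.4 CPM in ES, 0.640 in Neuro2A and 207 in MEF. Ptbp2, the neuronal relative of the polypyrimidine tract binding protein, stood at 66.2, 14.4 and 59.5 CPM in ES, 598 in Neuro2A and 120.0 in MEF (12.8-fold higher in Neuro2A than in ES; edgeR adjusted p = 0.288). Magoh, of the exon junction complex, stood at 350.0, 228 and 135 CPM in ES, 187 in MEF and 2.88 in Neuro2A, with 9 reads there (ES 82.6-fold higher; edgeR adjusted p = 0.224). In each of these genes the plate of the other cell type lay outside the range of the ES plates, without passing edgeR's test. Dhx16, a helicase of the activated spliceosome, stood at 249, 115 and 353 CPM in ES, 26.9 in Neuro2A and 20.6 in MEF (11.6-fold above MEF; edgeR adjusted p = 0.519).

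MEF was also the lowest plate in single wells. The share of a well's gene reads on the 56 genes had a median of 2.34%, 2.15% and 1.64% in ES, 2.36% in Neuro2A and 1.01% in MEF. The share was above the MEF median in 87 of 93, 64 of 66 and 91 of 94 wells of the ES plates and in 81 of 86 wells of Neuro2A. The distributions overlapped: the MEF wells ran from 0.165% to 3.41% and those of ES plate 3 from 0.830% to 3.27%. Within plates, wells with a barcode ending in G had medians of 2.04%, 1.99% and 1.61% in the ES plates, against 2.56%, 2.36% and 1.68% in the other wells. In Neuro2A and MEF these were 2.35% against 2.37% and 1.00% against 1.04%.

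**Figure D5:**
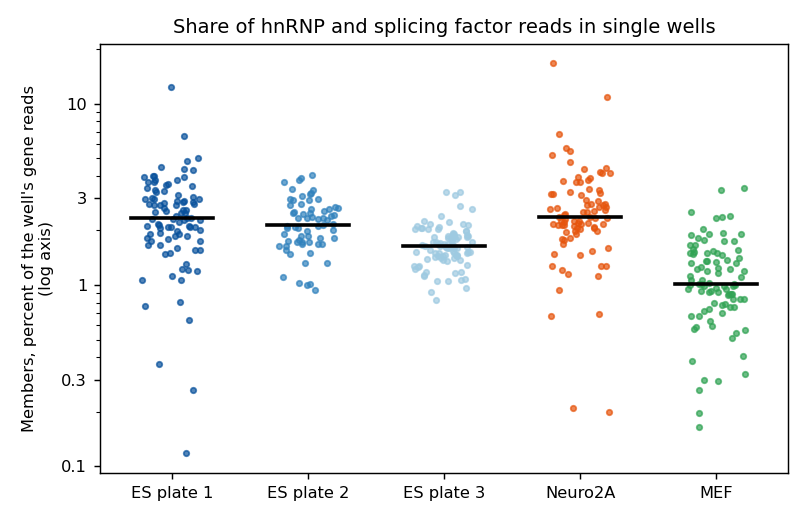
Share of gene reads on the 56 genes in each kept well (y axis, percent on a log scale; 1 point per well, horizontal position within a plate random; bar, median). Most wells of the ES plates and Neuro2A lie above the MEF median of 1.01%, and 1 Neuro2A well reaches 16.7%.

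In a few wells 1 gene made up most of a very high share. In the Neuro2A well at 16.7%, Hnrpa1, a shuttling hnRNP that antagonises SR proteins, took 16.3% of the gene reads, and the other 55 genes together took 0.335%. In the highest well of ES plate 1, at 12.3%, Hnrpd took 8.50%. In the highest MEF well, at 3.41%, Sfrs2, the SR protein also known as SC35, took 3.22%. Such wells show reads of 1 gene in 1 well, with no molecular identifier to say how many molecules they came from.

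To compare wells at 1 depth, each was thinned to 1000 gene reads. Wells then had a median of 24, 21.5 and 16 reads on the 56 genes in ES, 24 in Neuro2A and 10.5 in MEF, from a median of 9, 10 and 10 genes in ES, 9 in Neuro2A and 7 in MEF. The SD between wells was 15.7, 8.03 and 5.66 reads in the ES plates, where counting alone gives 5.07, 4.71 and 4.06. In Neuro2A it was 21.9 against 5.25, and in MEF 7.25 against 3.39, so the spread exceeded the counting error on every plate, and least on ES plate 3. The median over the 56 genes of the percent of wells with a read was 11.9 ± 0.515% in ES (SD, n = 3), 10.5% in Neuro2A and 8.15% in MEF. It moved to 13.8% in ES with another thinning seed, which is more than the SD between the plates. No cell type that lacks these genes was measured, so no background share can be set beside them. Median depths before thinning were 101130, 2520.5 and 17003 gene reads per well in ES, 26278 in Neuro2A and 12749 in MEF.

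In all, 18 of the 56 genes were read in at least 10% of thinned wells on every plate (8 hnRNPs, 6 SR genes, 3 snRNP genes and Sf3b1), and the spread of these between wells was set against the trend of all genes read as widely on the same plate. The measure was the difference of the log2 squared coefficient of variation from that trend, averaged over the 5 plates. Hnrpd varied most, at 1.21 above the trend, followed by Sfrs5 (0.80), Hnrpa1 (0.77), Sfrs2 (0.70) and Sfrs1 (0.41). Hnrpd was read in 41.9%, 54.5% and 47.9% of thinned wells in ES, 31.4% in Neuro2A and 23.9% in MEF, and was above the trend on all 5 plates. The value of Hnrpa1 rested on the Neuro2A plate (2.90 there, between -0.08 and 0.54 on the others), where 1 thinned well held 155 of its reads, and that of Sfrs2 on MEF (2.58) and ES plate 1 (1.60). The value of Sfrs1 rested on Neuro2A too (1.92 there, with 60 reads in 1 well, and between -0.21 and 0.33 on the others). Sfrs5 was also highest in Neuro2A (1.92, with 93 reads in 1 well) and lay between 0.40 and 0.66 on the others. Among the 5 with the lowest values were Snrpg (-0.55), Snrpe (-0.51) and Hnrpa2b1 (-0.33), the last read in 59.1%, 57.6% and 64.9% of thinned wells in ES, 74.4% in Neuro2A and 46.7% in MEF. Sf3b1 (-0.13) and Hnrpf (-0.12) completed them, and only 2 to 4 of these 5 were among the lowest 5 at another thinned depth, with another seed or without the deepest well of ES plate 2. At least 4 of the 5 highest were the same genes under each of those settings.

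Some of the 56 genes share near-identical stretches with transcripts of other genes, and reads could be divided between them. In the annotated transcripts, 25 of the 56 matched at least 1 other gene at 97% or more over 200 bases or more. Most genes matched were pseudogenes. Positions were not compared, so a match need not be a copy elsewhere in the genome. Those of Sfrs2 (Mettl23 and Mfsd11) and Hnrpab (Phykpl), for example, held no pseudogene. Hnrpa3 had 16 such matches, Hnrpf 9 and Hnrpa1 6. Sfrs3 had 3, and Hnrpk, Sfrs2 and Snrpf had 2 each. Sfrs10, Hnrph2, Snrpd1, Snrpg, Hnrpr, Sfrs4, Sfrs5, Snrpc, Snrpd2, Snrpe, Hnrpd and Hnrpab were among those with 1, while none was found for Sf3a1, Sfrs7, Sfrs1, Hnrph1, Hnrpl, Sf3a3 or Sf3b5. How the authors treated reads with several matches is not given in the sources used here, and the levels of these genes are uncertain to that extent.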

How the data were processed

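Whole-number counts were used as the authors deposited them, in 1 table per plate with genes and other features against well barcodes. The submitters' processing notes name Bowtie; its version, the genome build, the annotation and the handling of reads with several matches were not given in the sources used here. Library sizes and tests held neither repeats nor mitochondrial genes, a gene absent from a table was taken as 0 reads, and the minimum for a well was 1000 gene reads. The 56 genes, the 135 other splicing genes, the markers and the rules for naming were chosen with earlier results of these data known.

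Cells of a plate are not replicates, so reads were summed per plate. The 5 sums were fitted over all genes passing filterByExpr (12271) with edgeR 4.0.16 (glmQLFit and glmQLFTest, TMM, no covariates, Benjamini-Hochberg at 0.05) and R 4.3.3. The fit was also run on simulated counts of lower spread than these data, whose biological coefficient of variation was 122%. That run does not show how the fit performs here. Fold changes in the text are edgeR's log2 values of ES minus the other type, except those given with DESeq2's calls, which are DESeq2's own. The SE beside a fold change was worked back from the quasi-likelihood test, as its absolute value over the square root of the F statistic. Ratios are of CPM, and differences use a pseudocount of 1 on log2(CPM + 1). Neuro2A and MEF, with 1 plate each, were compared without a test. Genes with values in every plate were named by rule: the 3 most read of each family; the 5 largest ratios each way of those with every ES plate on 1 side and 100 CPM in the higher group; the 5 largest Neuro2A to MEF ratios each way; the 5 highest and 5 lowest in spread between wells; and those with a plate at 0. Of the other splicing genes the 3 largest ratios each way could be named.

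Alternatives were DESeq2 1.42.0, limma-voom (limma 3.58.1), other size factors, other filters of genes and wells, other denominators, other thinned depths and seeds, and each ES plate left out. Added after seeing the data were the wells whose barcode ends in G and single subtractions of carried-over reads. Carried-over reads were estimated from genes at 100 CPM or more in the source and at least 10 times every other plate except the target. The estimate was the median ratio of plate sums, target to source. Intervals are exact 95% binomial intervals and floors 3 reads. Sums, thinning and figures were made with pandas 2.3.3, numpy 2.4.6, scipy 1.17.1 and matplotlib 3.10.9 under python 3.11.15.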

Additional observations from a re-analysis of the deposited data

How the results depend on the processing

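The count of genes called against Neuro2A was 4 with DESeq2 in place of 0, and 0 with every other setting tried. Higher in every ES plate than in MEF were 37 genes with library size alone, 32 after subtraction of carried-over reads and 29 without wells whose barcode ends in G, in place of 19 (19 to 26 with 1 ES plate left out). Lower in every ES plate than in MEF were 1, 5 and 3 in the same order and 8 with wells weighted equally, in place of 14 (16 to 19 with 1 ES plate left out). Lower in every ES plate than in Neuro2A were 20 to 34 with 1 ES plate left out, and 34 of 56 without ES plate 1. A count with an ES plate left out kept the main scaling, so it could only stay or rise and is no check on the main count. Over all genes tested such shares were 27.7% to 30.5% above MEF, 44.6% to 45.8% below MEF and 31.8% to 33.8% below Neuro2A. At 3-fold in place of 2-fold 9 genes were higher in Neuro2A than in MEF in place of 16. Over all genes tested these shares were 22.4% and 28.3%. With wells weighted equally 7 were at least 2-fold lower in Neuro2A in place of 11. The share over all genes was not counted for that setting, so the move cannot be set against one of all genes. The mean ES share fell to 0.953% with repeats in the denominator. For Neuro2A and MEF the share was 2.84% and 1.17% with wells weighted equally, 2.80% and 1.13% without barcodes ending in G, 2.49% and 1.04% in those wells alone, 2.24% and 0.9502% with mitochondrial reads counted, 1.69% and 0.732% with repeats, and 2.82% and 1.16% without ribosomal protein genes. It was 2.69% in Neuro2A from wells of 5000 reads or more and 0.923% in MEF after subtraction. The ES median of wells with a read was 7.34% at 500 reads, 20.9% at 2000 and 13.8% with another seed. Of 240 alternative values for 20 named comparisons 236 kept their direction. Snrpe reversed from -0.72 to 0.0067 with library size alone and to 0.36 without barcodes ending in G, and Hnrpll from -0.68 to 0.022 with library size alone and to 0.20 without ES plate 2. The causes were not tested. No paired analysis was possible because Neuro2A and MEF have 1 plate each. With 2 residual degrees of freedom, a gene that misses the threshold is not shown to be alike between cell types, and ES plate 2, the shallowest, limits the low-count genes.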
